A study of Mus musculus with 14 samples.

Results

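The 10 septin genes Sept2 to Sept11 were examined across mRNA-seq libraries of mouse primary oligodendrocyte precursor cells (OPCs) and of the oligodendrocytes (OLs) that arise from them. Members were taken by gene symbol from the 23427 genes of the expression table, which holds 13 septin genes in all. The family was chosen by the level of Sept4 after knockdown of Secisbp2l (Sbp2l), where its decrease from the Day3 controls was among the largest of all genes, so that comparison is given as a description and not as a finding. The 10 members all passed the filter for testing, an FPKM of at least 1 in at least 2 libraries. FPKM is the number of fragments scaled to the exon length of a gene and to the sequencing depth of a library, so levels of different genes can be set side by side. Of the other septins, Sept1 lay between 0.94 and 4.23 FPKM, and Sept12 and Sept14 were listed at 0 in all 14 libraries.

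The cells were wild-type OPCs of the C57BL/6J strain, purified from the cortices of pups in the first postnatal week by immunopanning on an antibody against the receptor Pdgfra. PDGF-AA was then withdrawn and the thyroid hormone T3 added to start differentiation. The 14 libraries formed 7 groups of 2, namely Day0 cells and 6 groups at Day3: non-treated, mock (transfection without siRNA), NC siRNA #1 and NC siRNA #2 (non-targeting siRNAs), siSbp2l and siPdgfra, the last pair being knockdowns of Secisbp2l and of Pdgfra. An siRNA is a short RNA duplex that directs the degradation of a matching mRNA. The cortices of several pups were pooled for a preparation, and the sources used here do not say which of the listed Sbp2l siRNAs was given to which library. The siRNAs had their effect on the targeted mRNAs, with Secisbp2l at 3.91 and 3.82 FPKM in siSbp2l against 135 or more in each Day3 control library, and Pdgfra at 3.30 and 2.69 FPKM in siPdgfra against 32.4 or more.

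Septins are GTP-binding proteins that join into mixed complexes and then into filaments along membranes, actin and microtubules. Members fall into sequence groups that take set places in a complex: the Sept2 group (Sept2, Sept4 and Sept5 here), the Sept3 group (Sept3 and Sept9), the Sept6 group (Sept6, Sept8, Sept10 and Sept11) and Sept7, which stands alone and is needed in nearly every complex. In the central nervous system, filaments of Sept2, Sept4, Sept7 and Sept8 together with the scaffold protein anillin run along mature myelin sheaths.

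Depth, as recovered from the low FPKM values, was 18481353 to 22496782 fragments in 12 libraries, with NC siRNA #2 replicate 2 shallower (6560828) and Day0 replicate 1 deeper (31621343). Replicates were least alike in non-treated cells, where the log2 difference between the libraries had an SD of 0.46 over 11874 genes, against 0.15 to 0.20 in the other 6 groups, and where 3 septins differed by over 1.5-fold. According to the study's methods the knockdown series, which holds all of these libraries, was sequenced on a single type of instrument. Libraries of a group come from independent cultures according to the study's methods. OPC markers were all detected at Day0 (summed FPKM of 6 genes 835 to 860), and the summed level of 10 OL markers was 797 to 879 at Day0 and 2924 to 10590 at Day3. Markers of endothelial cells and of fibroblasts or pericytes had summed levels of at most 1.86 and 0.368 FPKM in any library. Kdr, at 0.543 to 1.80 FPKM, made up most of the endothelial sum, and the other markers of both lists were at or near 0. Of 6 microglia markers 5 were below 1 FPKM in both libraries of every group, and the sixth, P2ry12, was at 9.46 and 8.78 FPKM in NC siRNA #1, 7.57 and 6.57 in siPdgfra and at most 3.85 in the other groups. The astrocyte list reached 157.6 FPKM and the neuron list 355. Tubb3 and Map2 made up most of the neuron sum, with up to 273 and 214 FPKM. Syt1, Snap25, Rbfox3 and Stmn2 were at most at 5.16, 2.30, 1.20 and 0.0758 FPKM. In the astrocyte list Gfap, Aldoc, Slc1a3 and Aldh1l1 reached 79.2, 52.6, 42.5 and 7.13 FPKM, and Aqp4 and Gja1 were at most at 0.608 and 0.0523.

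The promoters of Sept4 and Sept8 are shown because these 2 members lay farthest apart after Sbp2l knockdown. Both genes are on chromosome 11, plus strand, of mm10, at 87581131 to 87590539 (Sept4) and 53519736 to 53544096 (Sept8). Windows run from 250 bases before to 50 bases after a RefSeq start (GRCm38.p6), and 7 of the 10 members had one (Sept3, Sept5 and Sept6 had none). Capitals mark matches, on either strand, to CANNTG (the E-box bound by bHLH factors such as Olig2), CTTTGA (the core of TCF/LEF sites, the family of Tcf7l2) and ACAANG (the core of Sox sites).
Sept4 promoter, chr11:87580811-87581110, plus strand: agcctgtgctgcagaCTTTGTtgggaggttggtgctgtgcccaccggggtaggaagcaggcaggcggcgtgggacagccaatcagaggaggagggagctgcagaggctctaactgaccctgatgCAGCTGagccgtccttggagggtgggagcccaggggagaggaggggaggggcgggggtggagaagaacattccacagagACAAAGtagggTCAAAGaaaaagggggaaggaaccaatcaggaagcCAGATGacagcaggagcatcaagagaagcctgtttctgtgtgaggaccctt
Sept8 promoter, chr11:53519486-53519785, plus strand: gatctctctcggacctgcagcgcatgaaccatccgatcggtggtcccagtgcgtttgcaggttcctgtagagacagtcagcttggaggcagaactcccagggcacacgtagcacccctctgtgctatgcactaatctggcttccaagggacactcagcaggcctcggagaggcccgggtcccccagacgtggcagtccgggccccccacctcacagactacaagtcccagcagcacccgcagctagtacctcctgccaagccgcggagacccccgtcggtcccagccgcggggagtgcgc
In the Sept4 window the E-box letters occurred 2 times (leftmost base at -126 and -1 from the start), the TCF/LEF core 1 time (-36) and the Sox core 2 times (-235 and -47), with no overlap between matches. Of all 32851 windows, 72.3% held an E-box, 16.0% a TCF/LEF core and 41.2% a Sox core, so the E-box and Sox letters are common. GGGCGG (a GC box) occurred 1 time in the Sept4 window, at -78, and TATAAA did not occur. GC boxes and TATAAA were present in 35.7% and 13.6% of windows. The Sept8 window held none of the 5 motifs, which says only that these letters are not in these bases. The Sept4 window had 5 CpG dinucleotides, and 38.0% of windows had fewer, whereas Sept8 had 18, Sept7 14, Sept11 25, Sept2 29, Sept10 30 and Sept9 31. The Sept4 start used here lies 70 bases before the start of the single Sept4 transcript of the expression table. RefSeq lists 3 further starts 2711, 2742 and 14442 bases upstream of that transcript start, which the table does not separate. Windows at these 3 starts had 13, 11 and 1 CpG dinucleotides, so the count of 5 holds for 1 start only. The Sept7 and Sept10 starts used here lie 448 and 347 bases from those of the expression table.

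**Figure D1:**
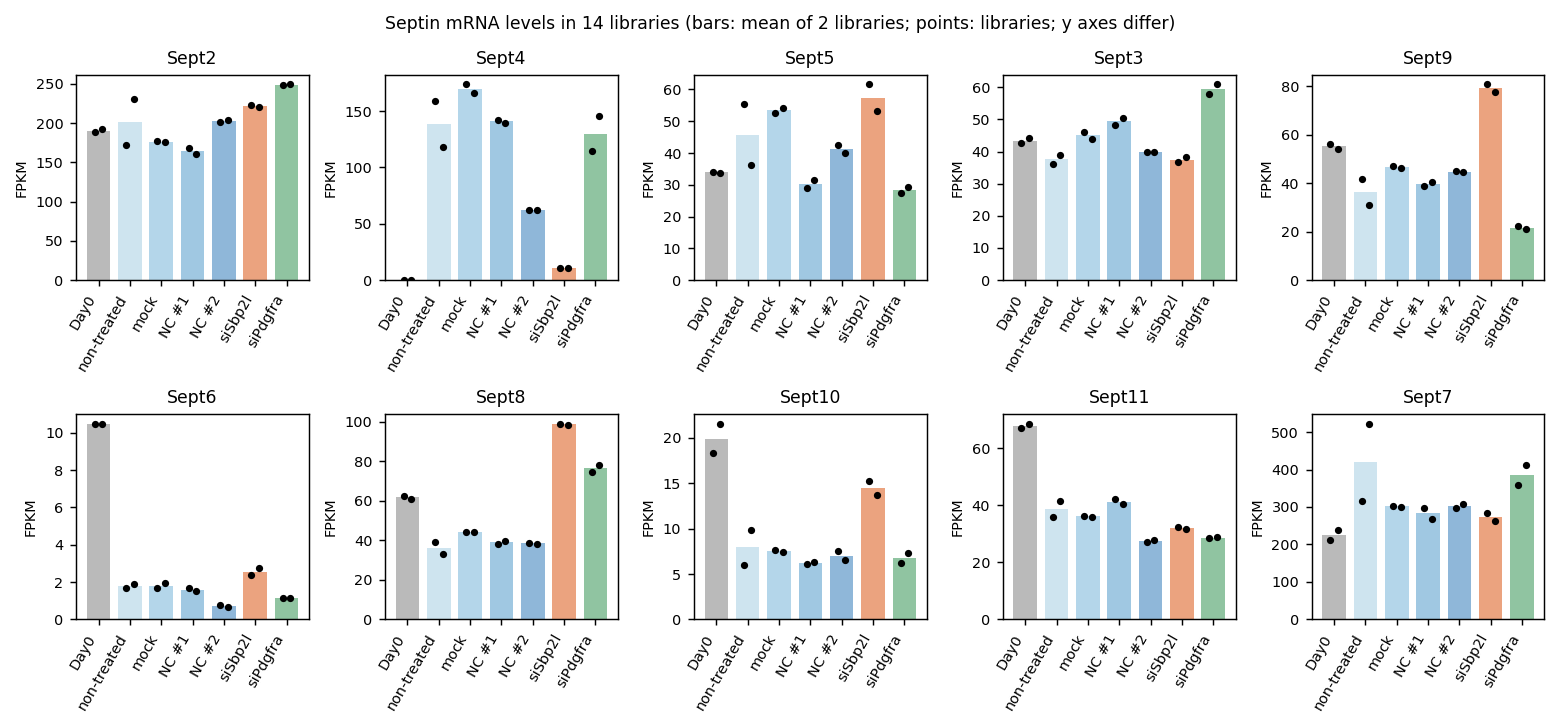
Septin mRNA levels in FPKM (y axes, which differ between panels and start at 0) in 7 groups (x axes), with bars for the mean of 2 libraries and points for the libraries. Sept4 was near 0 at Day0, between 61.8 and 174 in the Day3 controls and near 10 in siSbp2l, and Sept8 was highest in siSbp2l.

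In the Sept2 group, Sept4 was the member with the widest range of levels. Sept4 encodes a filament septin of the brain and, from the same gene, the pro-apoptotic product ARTS. At Day0 it was at 0.309 and 0.462 FPKM (16 and 17 fragments). At Day3 it was at 159 and 118 FPKM in non-treated cells, 174 and 166 in mock, 142 and 139.6 in NC siRNA #1 and 61.8 and 62.6 in NC siRNA #2. The siPdgfra libraries had 114 and 145 FPKM, and the siSbp2l libraries 10.3 and 11.1 FPKM (341 and 395 fragments). Both siSbp2l libraries were below every control library and above Day0. In order of group means, mock was highest, followed by NC siRNA #1, non-treated, siPdgfra, NC siRNA #2, siSbp2l and Day0. The libraries of NC siRNA #1 and non-treated overlapped, as did those of non-treated and siPdgfra, whereas the other neighbours did not. In bulk RNA, fewer cells of a type and less RNA per cell cannot be told apart.

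Sept2, a partner of actin filaments in the cleavage furrow and at the cell cortex, was at a high level throughout, with 188 and 193 FPKM at Day0, 172 and 231 in non-treated, 177 and 176 in mock, 168 and 160.1 in NC siRNA #1 and 201 and 204 in NC siRNA #2. It reached 223 and 221 FPKM in siSbp2l and 248 and 249.3 in siPdgfra. The siPdgfra libraries were above all 8 control libraries, and the siSbp2l libraries lay below 1 non-treated library. Sept5, a septin of presynaptic membranes that binds syntaxin, was at 33.9 FPKM in both Day0 libraries and ranged from 27.4 in siPdgfra to 61.6 in siSbp2l at Day3. Its 2 non-treated libraries differed from each other, with 55.4 and 36.3 FPKM. Sept5 overlaps the same-strand gene Gp1bb, which was at most at 4.91 FPKM in any library.

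In the Sept3 group, Sept3, which is enriched in neurons, was between 36.1 and 60.9 FPKM in all 14 libraries, with the highest levels in siPdgfra (57.8 and 60.9). Sept9, which binds microtubules and actin, was at 56.2 and 54.2 FPKM at Day0 and between 31.1 and 47.0 in the 8 Day3 control libraries. It was at 80.8 and 77.8 FPKM in siSbp2l and at 22.3 and 21.0 in siPdgfra. The controls thus lay between the knockdowns, and neither knockdown overlapped a control library.

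In the Sept6 group, Sept8, one of the filament septins of myelin, was at 62.3 and 61.0 FPKM at Day0 and lower in each of the 8 Day3 control libraries, which ranged from 33.3 to 44.1. It was at 99.0 and 98.1 FPKM in siSbp2l and at 74.8 and 77.9 in siPdgfra. Both knockdowns stood above every control library and above Day0. Sept10 was at 18.3 and 21.6 FPKM at Day0, 6.05 to 9.85 in the Day3 controls, 15.3 and 13.7 in siSbp2l and 6.23 and 7.31 in siPdgfra. Sept6, an X-linked gene and the weakest member at Day3, was at 10.5 FPKM in both Day0 libraries and at most at 2.75 in any Day3 library. In NC siRNA #2 replicate 2, the shallowest library, its 0.644 FPKM rested on about 28.3 fragments. Sept11 was at 67.2 and 68.7 FPKM at Day0 and between 27.2 and 42.3 at Day3.

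Sept7, the core subunit, was the most abundant septin in every group. It was at 213 and 239.5 FPKM at Day0, 316 and 522 in non-treated, between 269 and 307 in the other 6 control libraries, 285 and 263 in siSbp2l and 357 and 413 in siPdgfra. The gap between the non-treated libraries was the widest within any group.

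The composition of septin mRNA was described by each member's share of the summed FPKM of the 10 genes. All values here are means ± SD of the libraries of a group (n = 2). The sum was lowest at Day0 (709 ± 24.4 FPKM) and highest in siPdgfra (986 ± 67.5) and non-treated (963 ± 143). It was 882 ± 7.29 in mock, 795 ± 23.2 in NC siRNA #1, 766 ± 6.47 in NC siRNA #2 and 828 ± 25.1 in siSbp2l. Sept4 made up 0.0541% ± 0.0133 of it at Day0, 14.8% ± 5.16 in non-treated, 19.3% ± 0.453 in mock and 17.7% ± 0.303 in NC siRNA #1. Its share was 8.12% ± 0.00198 in NC siRNA #2, 1.29% ± 0.111 in siSbp2l and 13.1% ± 1.32 in siPdgfra. By mean level Sept4 had rank 10 at Day0, rank 3 in the Day3 controls and in siPdgfra, and rank 9 in siSbp2l. The order at Day0 was Sept7, Sept2, Sept11, Sept8, Sept9, Sept3, Sept5, Sept10, Sept6 and Sept4, with no overlap between neighbours. The Sept6 group took 22.6% ± 0.437 at Day0, between 8.86% and 11.1% in the Day3 controls, 17.8% ± 0.304 in siSbp2l and 11.5% ± 0.463 in siPdgfra. With 2 libraries a group no test of a share was made.

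**Figure D2:**
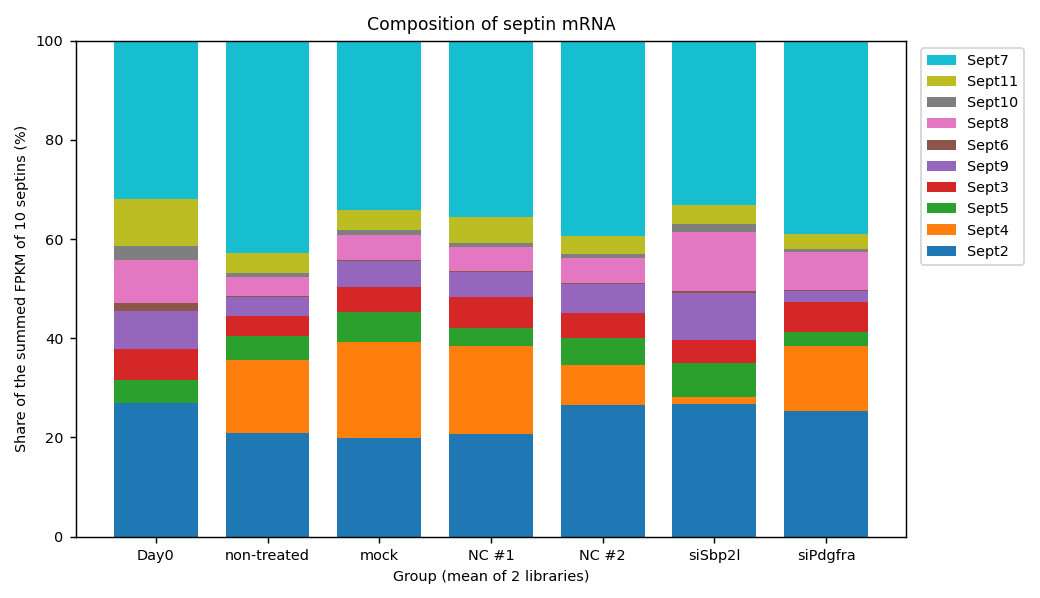
Each septin's share of the summed FPKM of the 10 members, in percent (y axis), as the mean of 2 libraries in each of 7 groups (x axis). Sept7 and Sept2 held the largest shares in every group, and the Sept4 share was 0.0541% at Day0, 19.3% in mock and 1.29% in siSbp2l.

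Differentiation from Day0 to Day3 was compared in non-treated cells. Sept4 rose, and Sept6 and Sept10 fell by over 2-fold. A gene was called at a 2-fold or larger difference on the log2(FPKM + 1) scale and an adjusted p under 0.05 (limma, Benjamini-Hochberg). By this rule 26.6% of the 11874 genes tested were called, 11.4% higher and 15.2% lower, and 3 of the 10 septins were called, 1 higher and 2 lower. The septin count is thus close to the background. Sept4 rose by 6.64 on the log2 scale (SE 0.14, limma adjusted p = 5.21e-11), and its ratio of mean FPKM was 359.6. Sept4 passed the filter for testing only through Day3 libraries, since both Day0 libraries were below 1 FPKM. The non-treated libraries are also among the controls of the contrast by which Sept4 was chosen. Its p-value is therefore given as a description and not as independent evidence of a rise. With mock in place of non-treated, a comparison chosen after seeing the data, the rise was 6.95. Sept6 fell by 2.05 (SE 0.10, limma adjusted p = 1.12e-08) and Sept10 by 1.25 (SE 0.17, limma adjusted p = 6.81e-05). The Sept10 call rested on non-treated replicate 1, since without it the difference was -0.94, and it was also lost with a pseudocount of 5 (-0.96).

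The other members moved by under 2-fold. In all, 9 of the 10 septins had an adjusted p under 0.05, as had 67% of the genes tested. Sept8 was lower at Day3 by 0.76 on the log2 scale (SE 0.09, limma adjusted p = 1.46e-05), Sept11 by 0.80 (limma adjusted p = 8.38e-06) and Sept9 by 0.60 (limma adjusted p = 0.000819). Sept7 was higher by 0.84 (SE 0.19, limma adjusted p = 0.00211). For Sept7 the difference was 0.48 without non-treated replicate 2 and 1.21, past the 2-fold call, without replicate 1, and it was 0.42 with mock in place of non-treated (limma adjusted p = 0.0729). Sept9 likewise had a difference of -0.24 with mock (limma adjusted p = 0.0934). The differences of Sept5 (0.39, limma adjusted p = 0.0457) and Sept3 (-0.20, limma adjusted p = 0.0447) were near the threshold. Without non-treated replicate 1 Sept5 had 0.096 (limma adjusted p = 0.375). With mock in place of non-treated Sept3 had 0.05. Sept2 had a difference of 0.06 (95% interval -0.20 to 0.33, limma adjusted p = 0.656). The median difference was -0.40 over the septins and -0.12 over all genes tested. All 10 OL markers rose (median 4.18), among them Mbp, which encodes myelin basic protein, and their part in the septin values was not tested.

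Knockdown of Sbp2l is the comparison by which Sept4 was chosen, and the values are therefore given without a test. Sept4 was 91.6% lower in siSbp2l than the mean of the 4 Day3 control groups in FPKM. On the log2(FPKM + 1) scale the difference was -3.37 (SE 0.12). It was -3.87 against mock, -3.60 against NC siRNA #1, -3.56 against non-treated and -2.43 against NC siRNA #2, the control with the least Sept4. At 10.7 FPKM on average, Sept4 in siSbp2l was 27.8 times its Day0 mean.

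Sept8 lay on the other side, 2.502 times the control mean, with a log2 difference of 1.31 (SE 0.08) and 1.14 to 1.43 against the single controls. Sept10 was 2.01 times the control mean (log2 difference 0.93, SE 0.14) and Sept9 was 1.90 times (0.92, SE 0.10), both just short of 2-fold on the log2(FPKM + 1) scale. Sept6 had a difference of 0.55 (SE 0.09), Sept5 of 0.45 (SE 0.13) and Sept2 of 0.26 (SE 0.10). Sept7 (-0.22, SE 0.15), Sept3 (-0.18, SE 0.07) and Sept11 (-0.15, SE 0.07) had small negative differences. The members thus spread from -3.37 to 1.31, with 6 positive, 4 negative and a median of 0.36 beside 0.15 over all 11650 genes tested. Of the 10 septins, Sept8 was higher by 2-fold or more and Sept4 lower by 2-fold or more, against the control mean and against each of the 4 controls. By size alone, with no test, 3.12% of genes were higher and 4.09% lower by 2-fold or more than the control mean, and 1.19% were higher and 2.03% lower than each of the 4 controls. Because the rule used this contrast, nothing is read from these counts. Median-ratio scaling moved the median of all genes from 0.15 to 0.00164, the genes called over the whole table from 363 higher and 475 lower to 214 and 616, and Sept2 to 0.096. With this scaling Sept8 had a difference of 0.98 against mock, short of 2-fold.

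The 10 OL markers all had negative differences in siSbp2l, with a median of -1.56, and 6 of them were lower by 2-fold or more. Their summed FPKM was 2924 to 3140 in siSbp2l and 7239 to 10590 in the 8 control libraries, and none of the 10 was at 0 in any group. Sept4 (-3.37) was below Mbp (-1.97) in log2 difference. The summed level of 6 OPC markers was 411 to 428 in siSbp2l and 288 to 423 in the controls, that of 6 neuron markers 327 to 328 against 126 to 355, and that of 6 astrocyte markers 102 to 109.7 against 90.0 to 158. The OPC sum hides opposite moves, since 2 of the 6 were higher and 1 lower by 2-fold or more (median 0.42). Pdgfra was at 150 and 144 FPKM against 32.4 to 72.1 in the controls, and Gpr17 at 87.8 and 99.5 against 173 to 229. All 4 neuron markers tested had positive differences (median 0.80), and all 4 astrocyte markers tested had negative ones (median -0.38). The part of a change in cell composition in the Sept4 value was not tested.

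**Figure D3:**
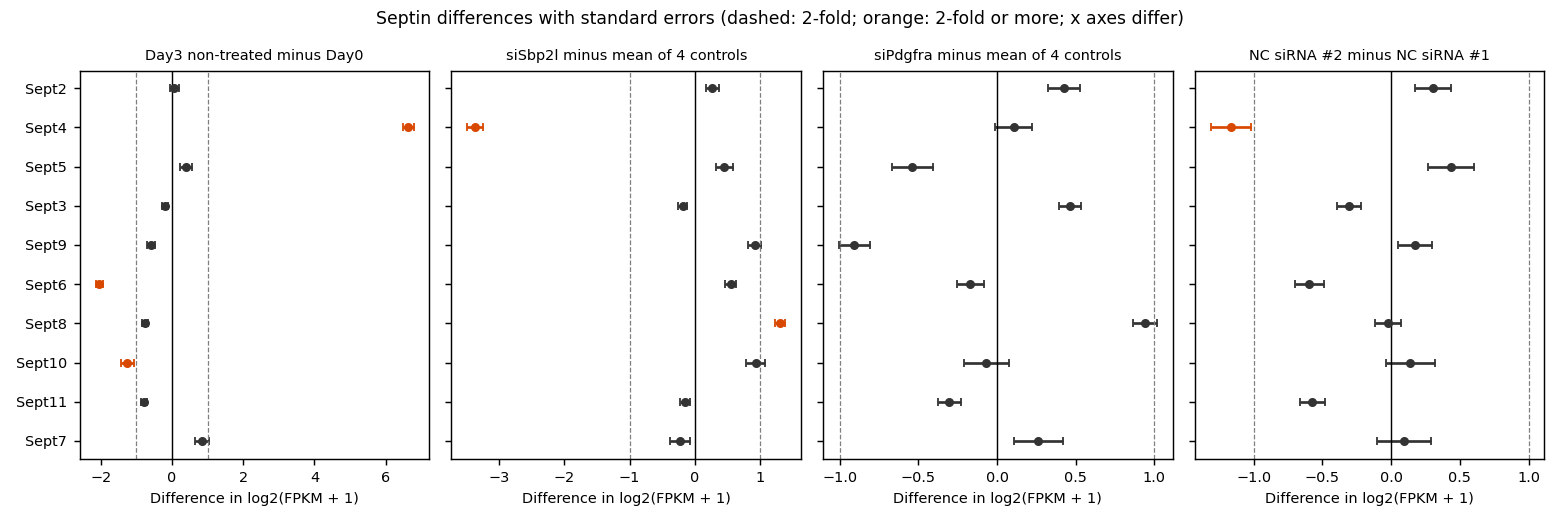
Differences in log2(FPKM + 1) (x axes, which differ) of the 10 septins in 4 comparisons, with points for the estimate, bars for the SE, dashed lines at 2-fold and orange for differences of 2-fold or more. Sept4 lies at 6.64 for Day3 against Day0, at -3.37 for siSbp2l and at 0.11 for siPdgfra, and Sept8 is positive in both knockdowns.

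Knockdown of Pdgfra, the receptor for PDGF-AA, was compared with the same control libraries as siSbp2l, so the values of both knockdowns share these controls. No septin passed the 2-fold call in siPdgfra (limma), where 7.99% of the 11650 genes were called, and 6 septins had an adjusted p under 0.05, as had 55.4% of genes. Sept8 was higher by 0.94 on the log2 scale (SE 0.08, limma adjusted p = 4.83e-06), a ratio of mean FPKM of 1.94. Sept9 was lower by 0.91 (SE 0.10, limma adjusted p = 4.06e-05), a ratio of 0.518. Sept3 (0.47, limma adjusted p = 0.000309) and Sept2 (0.43, limma adjusted p = 0.0053) were higher, and Sept5 (-0.54, limma adjusted p = 0.0065) and Sept11 (-0.30, limma adjusted p = 0.00587) were lower. The Sept5 adjusted p was 0.0686 (limma) without siPdgfra replicate 1, and its difference was -0.09 against NC siRNA #1 alone (limma adjusted p = 0.676), and Sept11 had 0.06 against NC siRNA #2 alone (limma adjusted p = 0.648). Against single controls 3 septins passed the 2-fold call in siPdgfra. Sept8 was called against non-treated (1.06, limma adjusted p = 1.42e-05), where 6.15% of genes were called higher. Sept9 was called against mock (-1.07, limma adjusted p = 9.35e-05) and NC siRNA #2 (-1.01, limma adjusted p = 0.00013), where 4.69% and 5.12% of genes were called lower. Sept4 was called against NC siRNA #2.

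Sept4 had a difference of 0.11 in siPdgfra (95% interval -0.15 to 0.37, limma adjusted p = 0.456), which excludes neither a small decrease nor a small increase. That value depended on the control. It was -0.40 against mock (limma adjusted p = 0.0545), -0.13 against NC siRNA #1, -0.09 against non-treated and 1.04 against NC siRNA #2 (limma adjusted p = 0.000341), the last past the 2-fold call as 5.12% of genes were in that direction. Sept4 was -0.06 without siPdgfra replicate 2, and against the mean of the NC siRNA groups alone it was 0.46 (limma adjusted p = 0.0138). The controls here are those of the contrast by which Sept4 was chosen, so its p-values in siPdgfra are given as a description. Sept7 (0.26, limma adjusted p = 0.172), Sept6 (-0.17, limma adjusted p = 0.113) and Sept10 (-0.07, limma adjusted p = 0.703) did not pass the test. Sept7 had 0.35 without non-treated replicate 2 (limma adjusted p = 0.000642). In siSbp2l and siPdgfra, respectively, the log2 difference from the same controls was -3.37 and 0.11 for Sept4, 0.92 and -0.91 for Sept9, 0.93 and -0.07 for Sept10, 1.31 and 0.94 for Sept8 and 0.45 and -0.54 for Sept5. The OL marker list had a median of -0.52 in siPdgfra with 1 of 10 called (Mag, -2.38), and a summed FPKM of 5459 to 6275. The OPC list, which includes the target Pdgfra, had a median of -0.51, with 5 of 6 genes negative and 1 called lower. All 6 had an adjusted p under 0.05 (limma), beside 55.4% of all genes. The summed OPC level was 246 to 274 FPKM in siPdgfra and 288 to 423 in the controls. The astrocyte list summed to 41.3 to 42.1 FPKM in siPdgfra and 90.0 to 158 in the controls, with 3 of the 4 genes tested called lower and a median of -1.51. The neuron list summed to 342 to 344 FPKM against 126 to 355, with 1 of 4 called higher and a median of 0.76. P2ry12, the 1 microglia marker tested, was higher in siPdgfra by 1.08 (limma adjusted p = 0.00044) and in NC siRNA #1 over mock by 2.21 (limma adjusted p = 1e-04). The part of these lists in the septin values was not tested.

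The non-targeting siRNAs differed from each other in Sept4, which bears on the level a knockdown is read against. Sept4 was lower in NC siRNA #2 than in NC siRNA #1 by 1.17 on the log2 scale (SE 0.15, limma adjusted p = 0.000381) and lower than in mock by 1.43 (SE 0.15, limma adjusted p = 0.000236). It was the only one of the 10 septins called in either comparison, where 3.99% (2.36% lower) and 2.02% (1.39% lower) of genes were called. These groups are also among the controls of the contrast by which Sept4 was chosen. The Sept4 p-values and calls are therefore given as a description and not as independent evidence. The ratio of mock to NC siRNA #2 in mean FPKM was 2.73, and that of NC siRNA #2 to siSbp2l 5.81. Sept6 was lower in NC siRNA #2 than in NC siRNA #1 by 0.59 (limma adjusted p = 0.00324) and Sept11 by 0.57 (limma adjusted p = 0.00167), and Sept3 had -0.31 (limma adjusted p = 0.0312). With Sept4 these were 4 of the 10 septins with an adjusted p under 0.05, against 21% of genes. Against mock there were 3 (Sept4, Sept6 and Sept11), against 14.6% of genes. Without NC siRNA #2 replicate 2, the shallow library, the Sept4 call stood. In these comparisons 4 of the 10 OL markers were called lower in NC siRNA #2 than in NC siRNA #1 (Mbp, Mag, Mog and Mobp; median of the list -0.77) and 3 lower than in mock, and their part in the Sept4 value was not tested. NC siRNA #1 against mock gave no septin called (background 3.19%), with Sept5 lower by 0.80 (limma adjusted p = 0.00786). Mock against non-treated gave no septin called or with an adjusted p under 0.05 (limma), in a comparison where 1 gene (0.00858%) was called, 0.215% had an adjusted p under 0.05 and 1924 genes had an unadjusted p under 0.05.

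Genes whose products work with septins were taken from a fixed list of 13. From Day0 to Day3, 1 rose and 6 fell past the 2-fold call, where 11.4% of all genes rose and 15.2% fell, and 11 had an adjusted p under 0.05, as had 67% of all genes. The median was -0.21 beside -0.12 over all genes. Anln, which encodes anillin, the scaffold that links septins to actin, fell by 2.85 (SE 0.14, limma adjusted p = 1.4e-08), from 23.6 and 24.2 FPKM at Day0 to 2.05 and 2.93 in non-treated cells. Cit (citron kinase of the cleavage furrow) fell by 2.66, and the Borg proteins Cdc42ep5, Cdc42ep4 and Cdc42ep1, which bind septins downstream of Cdc42, fell by 2.14, 1.36 and 1.11. Map4, a microtubule protein that competes with septins, fell by 1.38. The Borg protein Cdc42ep3 rose by 2.37 (SE 0.17, limma adjusted p = 2.63e-07), from 0.595 and 0.678 FPKM to 6.36 and 8.67. Both Cdc42ep3 libraries at Day0 were below 1 FPKM, so it passed the filter only through Day3 libraries. Cit and Cdc42ep5 passed it only through Day0 libraries. The calls of these genes and the p-value of Cdc42ep3 are therefore given as a description. Among the Borg genes, Cdc42ep4 and Cdc42ep1 fell without this limit.

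At Day3, 11 of the 13 partners passed the filter (Cdc42ep5 and Cit did not). Anln was at 1.80 to 2.93 FPKM in non-treated, mock and NC siRNA #2, 10.2 and 8.84 in NC siRNA #1, 1.16 and 1.49 in siSbp2l and 11.7 and 12.03 in siPdgfra. It rose in siPdgfra by 1.55 (SE 0.12, limma adjusted p = 4.34e-06), the only partner called there beside 3.97% of genes called higher, and in NC siRNA #1 over mock by 1.65 (limma adjusted p = 7.69e-05). The siPdgfra level was thus above every control library, but NC siRNA #1 was close to it. Map4 was higher in siPdgfra by 0.99 (limma adjusted p = 2.37e-06) and Cdc42ep4 lower by 0.66 (limma adjusted p = 0.00377), both under 2-fold. In siSbp2l no partner differed by 2-fold or more from the mean of the 4 controls. Against single controls Anln (-2.18) and Cdc42ep2 (-1.21) were lower than in NC siRNA #1 and Map4 (1.06) was higher than in non-treated by that size. The log2 differences from the mean of the 4 controls, given without a test, were -0.92 for Anln, 0.68 for Map4 and 0.64 for Cdc42ep4. Of the myelin filament set, Sept4 and Anln were thus below the control mean in siSbp2l and Sept8 and Sept2 above it, with Sept7 at -0.22.

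The genes with the pattern most like that of Sept4 over the 14 libraries, by Pearson correlation in log2(FPKM + 1) among 11873 other genes, were Osbpl1a (r = 0.9898), Tmem132b (0.9864), Chst8 (0.9854), Prkcz (0.9847) and Gnao1 (0.9839). These are descriptions of libraries that share groups, and no p is given. Osbpl1a, an oxysterol-binding protein family member, had a mean of 9.91 FPKM at Day0, 83.6 in mock, 65.3 in NC siRNA #2, 23.3 in siSbp2l and 89.4 in siPdgfra. In siSbp2l, the mean was 6.30% of the mock mean for Sept4, 15.9% for Chst8, 22.9% for Tmem132b, 27.9% for Osbpl1a, 34.6% for Gnao1 and 51.3% for Prkcz. In NC siRNA #2 it was 36.6% of mock for Sept4 and 64.1% to 90.5% for the other 5. Mbp ranked 29 (r = 0.9715). No other septin was among the genes nearest to Sept4, and the septin closest to it was Sept7 (r = 0.6494). Sept10 (r = -0.9338) and Sept6 (r = -0.869) were negatively correlated with Sept4 over the 14 libraries. Among the Day3 controls, however, Sept6 was lowest in NC siRNA #2, as Sept4 was. The genes most like Sept8 were Gramd4 (r = 0.9794), Fmnl3 (0.9741), which encodes a formin that elongates actin filaments, and Gpr125 (0.9728). Gpr125, an adhesion receptor, had a mean of 29.8 FPKM at Day0, 14.4 in mock, 56.6 in siSbp2l and 28.7 in siPdgfra.

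**Figure D4:**
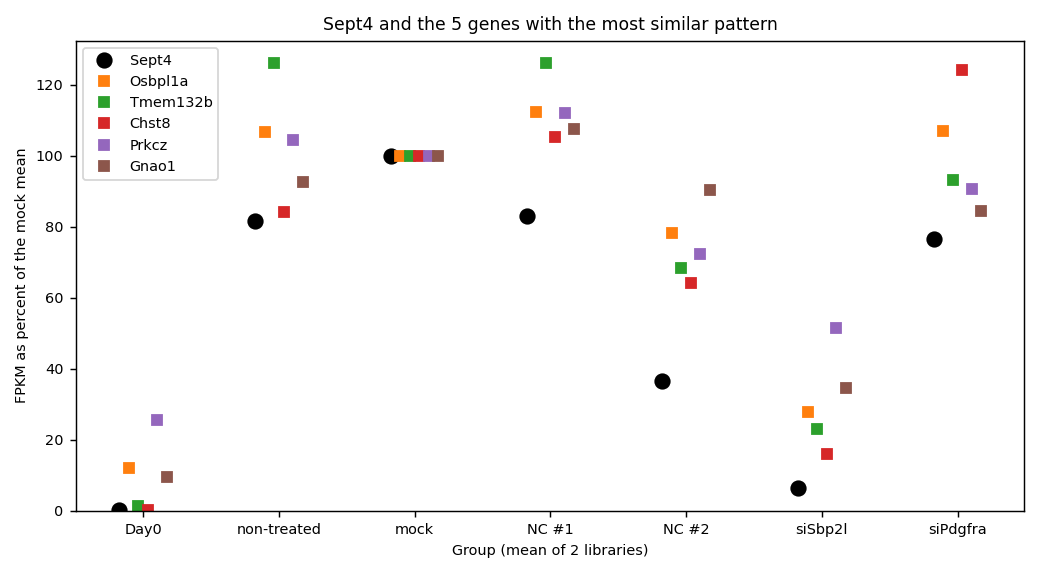
Mean FPKM of Sept4 and of the 5 genes with the most similar pattern, as a percent of the mock mean (y axis), in 7 groups of 2 libraries (x axis, points shifted sideways for clarity). In siSbp2l Sept4 was at 6.30% of mock and the other 5 between 15.9% and 51.3%.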

How the data were processed

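Stranded mRNA-seq libraries were made from 2 independent cultures per group. The authors processed the reads in OmicSoft ArrayStudio on mm10 (aligner and counting settings not given in the sources used here), compared groups with DESeq2 (the processing notes name DESeq, version 2) and deposited FPKM values per gene in a table that is presented as counts. A second deposited table gives gene positions, exon lengths and transcript numbers, which were used as deposited, and the authors' fold changes and p-values for siSbp2l against the 4 controls, which were not used. Columns were matched to samples by name (columns naming only Day3 to non-treated, a misspelled column to siSbp2l replicate 1), and 0 columns were left unmapped. Older symbols (Mtap4, Gm98, Mtap2) were matched through RefSeq.

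Values of log2(FPKM + 1), a scale that understates changes of low genes, were tested in limma (version 3.58.1, R 4.3.3) with an intensity trend and robust moderation. A gene was tested at an FPKM of at least 1 in at least 2 libraries fitted. All 14 libraries were fitted for Day3 against Day0 and the 12 Day3 libraries for the rest, two-sided, with Benjamini-Hochberg adjustment over all genes tested. Differences from the 4 controls give each control group equal weight. Members and listed genes in siSbp2l were counted by size alone, with no test. The fits were tested on simulated data with known changes. Depth was recovered from low values (at least 0.2 FPKM and up to 50 fragments), of which 88.8% to 92.5% were whole within 0.1 for genes with 1 transcript. This depth is an estimate. A floor of 3 fragments is 0.058 FPKM for Sept4 in the deepest library and 0.2795 in the shallowest, for counting error only. Replicates differed by more than sampling noise in all 7 groups. The named genes were all septins, the siRNA targets, 13 partners, cell type markers and the genes most correlated with Sept4 (5) and Sept8 (3). The members and lists were chosen with earlier results of these data known. Alternatives were other pseudocounts, filters, scalings, control sets, a replicate block, fits of only the groups compared, no fold threshold and leaving out each library. Python 3.11.15 with pandas 2.3.3 and matplotlib 3.10.9 was used for levels, promoter windows and figures.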

Additional observations from a re-analysis of the deposited data

How the results depend on the processing

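The calls of Sept4 and Sept6 from Day0 to Day3 and of Sept4 in NC siRNA #2 against mock and against NC siRNA #1 kept their direction and stayed past the threshold under every alternative run, with Sept4 differences of 4.72 to 8.16, -1.49 to -1.38 and -1.23 to -1.12. None of these settings removes the choice of Sept4 by its decrease in siSbp2l from these controls, so its calls remain a description. Sept4 in siSbp2l ranged from -3.52 to -2.99. Values of septins with a difference near 0 changed sign. From Day0 to Day3 these were Sept2 (-0.11) and Sept3 (0.053) with mock in place of non-treated, and Sept2 when a library was left out (-0.15 to 0.28). In siPdgfra they were Sept6 (0.029) and Sept10 (0.026) against the mean of the NC siRNA groups, and, when a library was left out, Sept10 (-0.17 to 0.033) and Sept4 (-0.064 to 0.28). For NC siRNA #2 against mock Sept7 had -0.042 with median-ratio and -0.054 with upper-quartile scaling and -0.022 to 0.025 without single libraries, and Sept8 against NC siRNA #1 had -0.047 to 0.0047. For mock against non-treated Sept6 had -0.027 and -0.021 with these scalings, and without single libraries Sept6 had -0.061 to 0.077, Sept2 -0.39 to 0.037, Sept5 -0.051 to 0.55, Sept10 -0.34 to 0.28 and Sept11 -0.20 to 0.012.

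Counts depended on the pseudocount. For Day3 against Day0 a pseudocount of 5 gave 1915 genes called. With pseudocounts of 0.1 and 5 the counts were 1527 and 382 for siPdgfra, 1376 and 392 for siSbp2l, 729 and 113 for NC siRNA #1 against mock, 482 and 71 for NC siRNA #2 against mock, 775 and 196 for NC siRNA #2 against NC siRNA #1 and 7 and 0 for mock against non-treated. A pseudocount of 0.1 raised the septins called to 2 for NC siRNA #2 against both (Sept6 added). With no fold threshold the genes past the test were 7952 (9 septins), 6454 (6), 6226, 2429 (1), 1702 (3), 2444 (4) and 25, in the order Day3, siPdgfra, siSbp2l and then as above. Septins in siSbp2l were counted by size only, so no such count is given for them. A pseudocount of 5 left 2 septins called for Day3 against Day0 (Sept10 lost). Upper-quartile scaling gave 1 septin called in siPdgfra (Sept9). Mock against non-treated gave 0 genes when only these groups were fitted and 0 to 113 when a library was left out, the highest without non-treated replicate 1. The calls of Sept8, Sept9 and Sept4 in siPdgfra against single controls were lost with a pseudocount of 5 (0.99 for Sept8 against non-treated, -0.95 for Sept9 against mock). The call of Sept8 against non-treated was also lost with both other scalings, and that of Sept4 against NC siRNA #2 with upper-quartile scaling. The cause of these shifts was not tested beyond the settings themselves.

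Neither the labels nor the study's methods say whether libraries with the same replicate number share a preparation. Of 21 correlations between the replicate differences of 2 groups, 4 were over 0.1, with a range of -0.38 to 0.47. A fit with the replicate number as a block gave 3157 genes called for Day3 against Day0, 930 for siPdgfra and 838 for siSbp2l, and changed no call of a septin, while the adjusted p of Sept3 for Day3 against Day0 was 0.0511 (limma). With 2 libraries a group, precision rests on the spread pooled over groups.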
